A study of Mus musculus with 15 samples.

Results

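The BCL2 family decides whether the mitochondrial outer membrane stays intact, and 8 of its genes were described here over the 5 groups of the series. The members are Bcl2, Bcl2l1, Mcl1, Bcl2l11, Bax, Bak1, Bid and Bmf, and a gene was read from a probe set that the platform annotation assigned to it alone. Of these 8 members, 7 were measured among 19938 genes in all, each by 1 probe set, and Bax was not analysed here. The set had been labelled as the BCL2 family with executioner caspases, but its members hold no caspase. Casp6, an executioner caspase, is given below among the other apoptosis genes.

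The 15 Affymetrix arrays, 3 per group, read RNA of proliferating mammary epithelial cultures from female mice aged 8 weeks. WT cultures carried no change. The p53- cultures lost p53, and the p53- Rb- cultures lost p53 and Rb, in both cases through Cre recombinase delivered by an adenovirus. The p53- Myc+ cultures lost p53 and received a retrovirus carrying MYC, and the p53- Rb- Myc+ cultures had all of these changes. The labels name no control virus for WT, name no strain and leave unsaid if replicates were separate animals or cultures. The p-values therefore set group differences only against the spread among these samples, which may be technical.

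Proteins of this family fall into opposing classes. BCL2, BCL-XL (the product of Bcl2l1) and MCL1 guard the membrane by holding their pro-apoptotic relatives, whereas BAX and BAK (Bak1) form the pores that release cytochrome c. The BH3-only proteins BIM (Bcl2l11), BID and BMF sense stress and free or activate the pore formers. BID is special in being cut by caspase-8, which links death receptors to mitochondria. MYC is known to sensitise cells to apoptosis, and p53 is known to activate several of the pro-apoptotic genes, so the deposited groups ask which members change when these regulators and Rb are altered.

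The stretches before the transcription start are shown for the 4 members whose levels differed among the groups, to set their upstream sequence beside the expression data. They come from RefSeq (build GRCm38.p6), are given 5′ to 3′ on the gene's own strand and hold the 250 bases that end just before the start site. Capitals mark a match to one of 6 motifs searched on both strands: the E-box CACGTG of MYC, the E2F motif TTTNNCGC, the STAT motif TTCNNNGAA, the FOXO motif GTAAACA, the AP-1 motif TGANTCA and the p53 decamer. For Bcl2l1 and Bcl2l11, which have 3 and 2 listed start sites, the stretch with a match is shown. No matches overlapped in these stretches.
Bid, chr6:120916825-120917074, minus strand: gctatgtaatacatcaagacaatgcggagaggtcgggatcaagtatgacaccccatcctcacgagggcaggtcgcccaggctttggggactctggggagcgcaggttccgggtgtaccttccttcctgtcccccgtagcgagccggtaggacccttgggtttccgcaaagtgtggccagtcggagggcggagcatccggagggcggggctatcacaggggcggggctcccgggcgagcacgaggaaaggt
Bcl2l1, chr2:152830718-152830967, minus strand: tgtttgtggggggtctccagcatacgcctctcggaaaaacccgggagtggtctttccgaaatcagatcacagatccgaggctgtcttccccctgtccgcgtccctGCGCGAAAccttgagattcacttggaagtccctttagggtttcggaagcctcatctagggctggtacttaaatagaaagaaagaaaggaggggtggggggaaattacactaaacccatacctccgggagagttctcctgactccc
Bcl2l11, chr2:128125788-128126037, plus strand: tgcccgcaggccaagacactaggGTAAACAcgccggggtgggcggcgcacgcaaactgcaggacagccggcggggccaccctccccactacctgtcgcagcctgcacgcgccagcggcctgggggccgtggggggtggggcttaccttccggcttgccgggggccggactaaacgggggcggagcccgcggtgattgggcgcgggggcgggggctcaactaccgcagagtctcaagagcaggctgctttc
Bak1, chr17:27028628-27028877, minus strand: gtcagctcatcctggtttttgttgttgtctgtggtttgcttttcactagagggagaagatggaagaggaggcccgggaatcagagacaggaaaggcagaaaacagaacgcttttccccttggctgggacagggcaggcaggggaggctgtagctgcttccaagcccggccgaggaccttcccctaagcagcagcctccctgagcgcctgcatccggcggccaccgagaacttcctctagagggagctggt
In Bcl2l1 the capitals mark 1 E2F motif, which 4.28% of all 32851 stretches of this length hold. In Bcl2l11 they mark 1 FOXO motif, held by 3.17% of all stretches. The stretches of Bid and Bak1 held none of the 6 motifs. CACGTG, present in 6.02% of all stretches, stood in none of the 7 that belong to these 4 genes. A match is only a run of letters, and a missing match says nothing about binding elsewhere.

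Array quality and labels bear on every value below, and Trp53 itself was not analysed here. Rb1, the retinoblastoma gene, fell with the Rb- label by 1.27 ± 0.16 on the log2 scale (limma, adjusted p = 1.64e-05), and among Myc+ cultures by 0.57 ± 0.16 (0.0453). The first of these falls started from a raised level. In p53- arrays Rb1 was 0.71 ± 0.16 higher than in WT arrays (limma, adjusted p = 0.00286), which read 92.8 ± 9.57 (SD, n = 3). Median intensities per array ran from 41.3 to 54.9, and the correlation across genes between arrays of the same group was 0.963 to 0.989. Rb1 was also lower in p53- Myc+ (36.4 ± 10.8, SD, n = 3) than in p53- arrays (161 ± 17.3), although only the Rb- labels remove Rb, and its level with the Rb- label was 57.4 ± 6.07 without and 18.7 ± 1.09 with the Myc+ label. Myc, whose probe set reads the mouse gene and possibly not the viral copy, was also lower in p53- Myc+ (128 ± 29.5) than in p53- arrays (930 ± 105). Directions below therefore rest on the labels. The 8 epithelial markers examined (such as Epcam, Krt8 and Krt18) summed to between 16709 and 19258 in each array without the Myc+ label, but only to between 149.8 and 218 (p53- Myc+) and between 590 and 677 (p53- Rb- Myc+) with it. Most of the latter sum was Krt19, which read 465 to 517 in p53- Rb- Myc+ arrays, 65.7 to 81.6 in p53- Myc+ arrays and at least 1124 in every other array. Epcam read 1634 ± 32.5 in p53- arrays, against 10.3 ± 4.13 (p53- Myc+) and 11.6 ± 2.57 (p53- Rb- Myc+) with the Myc+ label. Transcripts of the labelled cell type were thus far lower in the 6 arrays labelled Myc+, and fewer cells of a type cannot be told apart from less RNA per cell. The 8 leukocyte markers summed to between 2127 and 2464 in WT arrays, most of it from Cd14 (1366 to 1750), while Ptprc read between 16.1 and 54.5 over all arrays.

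Intensities were compared as log2 of the value plus 16 in a limma fit of all 15 arrays, with p-values adjusted by Benjamini and Hochberg's method over all genes and a threshold of 0.05. Folds are on that scale, which understates changes of dim probe sets. Of the 7 measured members, 4 differed among the 5 groups in the F test of this fit, namely Bcl2l1 (adjusted p = 5.27e-09), Bid (1.13e-05), Bcl2l11 (0.000338) and Bak1 (0.000976). Among all genes, 58.0% passed the same test. Bcl2 (adjusted p = 0.537), Mcl1 (0.554) and Bmf (0.174) did not pass, although Bcl2 did with array weights (0.0283) and Bmf did without p53- Myc+ replicate 2 (0.00653). From highest to lowest, the group means of Bcl2l1, Bcl2l11, Bak1 and Bid spanned 1.82, 1.29, 1.10 and 1.10 on the log2 scale.

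**Figure D1:**
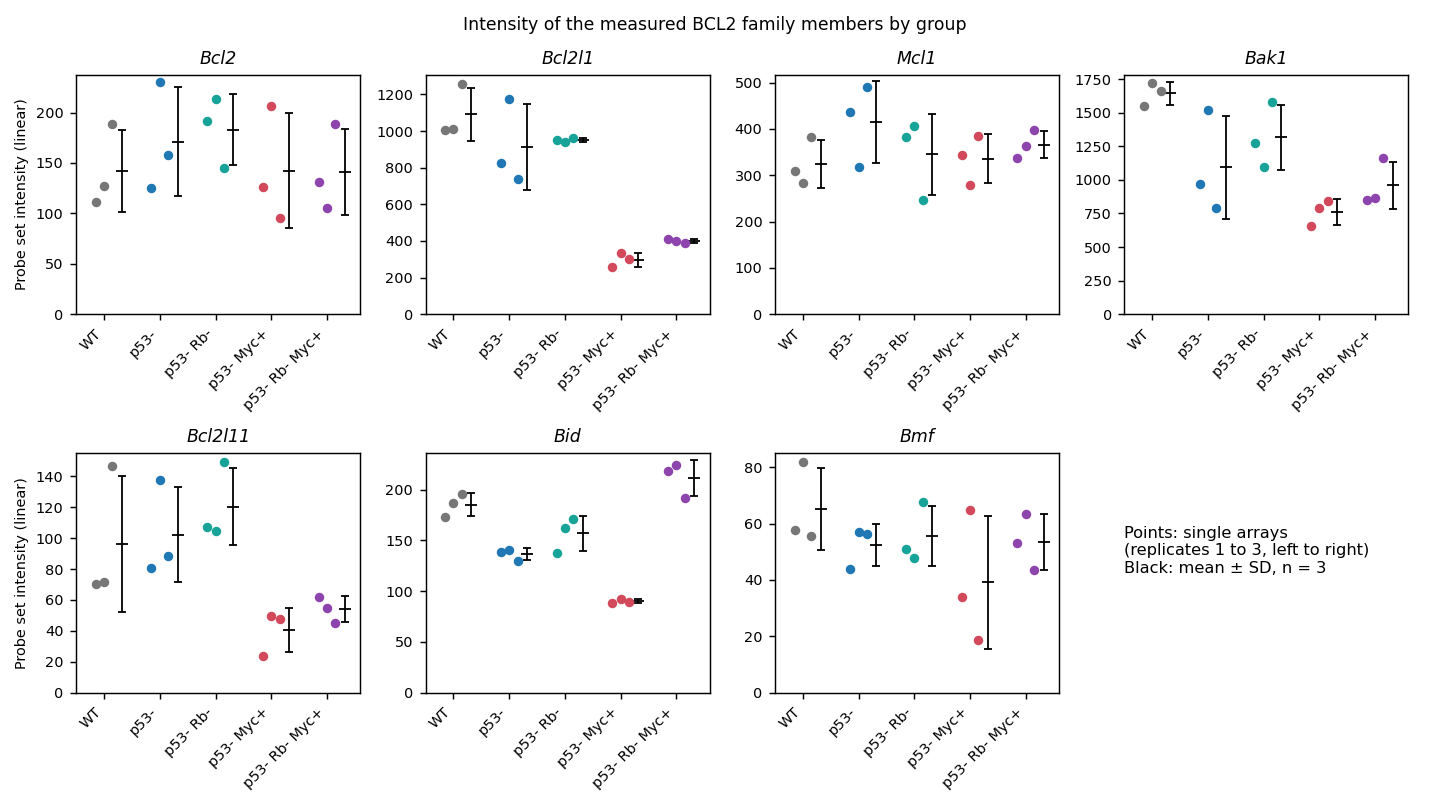
Probe set intensity (linear axis from 0) of the 7 measured members in each array, by group, with the mean ± SD of 3 arrays in black. Bcl2l1 and Bcl2l11 lie lower in both groups labelled Myc+, Bid is lowest in p53- Myc+ arrays (88.6 to 92.5) and highest in p53- Rb- Myc+ arrays (192 to 225), and Bcl2 and Mcl1 overlap in all groups.

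Among the guardians, Bcl2l1 showed the widest span. Its 3 WT arrays read 1007, 1010.5 and 1258. Its p53- arrays read 824, 1177 and 736, beside 952, 942 and 961 with the Rb- label added. The p53- Myc+ arrays read 256, 333.5 and 302, and the p53- Rb- Myc+ arrays 409, 401 and 389. Every array labelled Myc+ was thus below every array without that label. The order was WT, p53- Rb-, p53-, p53- Rb- Myc+ and p53- Myc+, and the only neighbours in it that overlapped were p53- Rb- and p53-.

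Bcl2 itself, the founding survival gene, kept overlapping levels in all groups. Its arrays ranged from 95.2 to 206 in p53- Myc+ and from 105 to 188 in p53- Rb- Myc+, against 111 to 188 (WT), 125 to 230 (p53-) and 145 to 213 (p53- Rb-). Mcl1, a short-lived guardian that is degraded quickly under stress, ranged from 279 to 385 in p53- Myc+ arrays and from 338 to 397 in p53- Rb- Myc+ arrays. Without the Myc+ label it ranged from 283 to 383 (WT), 317 to 491 (p53-) and 246 to 406 (p53- Rb-). For neither gene did any neighbours in the order of groups stand apart. The group means spanned 0.37 for Bcl2 and 0.33 for Mcl1 on the log2 scale.

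Bak1, the pore former measured among the members, read 1551, 1722 and 1657 in WT. Its p53- arrays were 965, 1523 and 792, and its p53- Rb- arrays 1275, 1095 and 1577. The p53- Myc+ arrays gave 654, 790 and 841, and the p53- Rb- Myc+ arrays 849, 868 and 1161. Neighbouring groups overlapped except for the lowest pair, p53- Rb- Myc+ above p53- Myc+. In p53- the spread was wide (SD 382 on a mean of 1093), with replicate 2 near the WT range.

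Among the BH3-only genes, Bcl2l11 read 70.2, 71.8 and 147 in WT. Its p53- arrays were 80.5, 137 and 88.6, and its p53- Rb- arrays 107.5, 104.7 and 149. With the Myc+ label it fell to 23.9, 49.8 and 47.6 (p53- Myc+) and to 61.7, 55.0 and 45.3 (p53- Rb- Myc+). Groups without the Myc+ label overlapped each other, as did the 2 groups with it, and the 2 sets stood apart. Bid followed another order. It read 88.6, 92.5 and 89.2 in p53- Myc+ arrays, against 219, 225 and 192 in p53- Rb- Myc+ arrays. The WT arrays read 173, 187 and 196, the p53- arrays 139, 140.5 and 130, and those labelled p53- Rb- 138, 162 and 171. From high to low the order was p53- Rb- Myc+, WT, p53- Rb-, p53- and p53- Myc+, with overlap between p53- Rb- Myc+ and WT and between p53- Rb- and p53-. Bmf, known to respond to detachment from the matrix, ranged from 55.6 to 81.9 in WT and from 18.7 to 65.0 in p53- Myc+ arrays, and all neighbouring groups overlapped.

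With the p53- label, 2 of 7 members fell relative to WT and none rose, where 29.0% of all genes passed (19.3% rose and 9.72% fell). Bak1 changed by -0.63 ± 0.21 (SE, 1.55-fold lower, adjusted p = 0.0253) and Bid by -0.40 ± 0.15 (1.32-fold lower, adjusted p = 0.0430). For both genes the 3 p53- arrays lay below the 3 WT arrays, as the arrays of 40.3% of all genes did not overlap in either direction. Both calls were close to the threshold. Bak1 missed it without WT replicate 2 (adjusted p = 0.0687) or 3 (0.0503) or without p53- replicate 1 (0.0894) or 3 (0.181), and with 1 added before the logarithm (0.0603). Bid missed it without any single WT or p53- array (0.0517 to 0.140), the highest value coming without p53- replicate 3, and without p53- Rb- replicate 1 or 2, p53- Myc+ replicate 1 or p53- Rb- Myc+ replicate 1 (0.0517 to 0.0541). The Bid call also ended with the replicate block (0.0502) and with only WT and p53- arrays in the fit (0.0967). The remaining 5 members did not pass, and the 95% intervals allowed changes from -0.30 to 0.77 for Bcl2, -0.09 to 0.74 for Mcl1, -0.39 to 0.61 for Bcl2l11 and -0.71 to 0.24 for Bmf. Bcl2l1 (-0.28 ± 0.17, adjusted p = 0.244) passed without p53- replicate 2 (-0.47, adjusted p = 0.0394), and Mcl1 (0.33 ± 0.20, 0.230) passed with array weights (0.48, 0.0361). The array of p53- replicate 2 held the highest Bcl2, Bcl2l1, Bcl2l11 and Bak1 and the lowest Mcl1 of its group. Leukocyte markers fell beside these changes in 5 of 8 and rose in 1, their sum going from between 2127 and 2464 in WT to between 575 and 723 in p53- arrays, and their part in the result was not tested.

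With the Rb- label in the absence of p53, 0 of 7 members passed limma's test, against 19.8% of all genes (9.36% rose and 10.4% fell), and 0 had an unadjusted p under 0.05. The median change of the members was 0.11, beside -0.08 over all genes. The largest estimates were Bak1 at 0.30 ± 0.21 (adjusted p = 0.323) and Mcl1 at -0.27 ± 0.20 (0.370). In no member did the arrays of the 2 groups stand apart, as they did for 40.0% of all genes. The interval for Bak1 ran from -0.13 to 0.73 and that for Bid from -0.13 to 0.48. Bak1 passed without p53- replicate 2 (0.56, adjusted p = 0.0423) and with array weights (0.43, 0.0233). Fibroblast markers rose in 5 of 10 in this comparison, their sum moving from between 8374 and 8815 to between 10562 and 12411, while epithelial markers passed in 0 of 8.

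**Figure D2:**
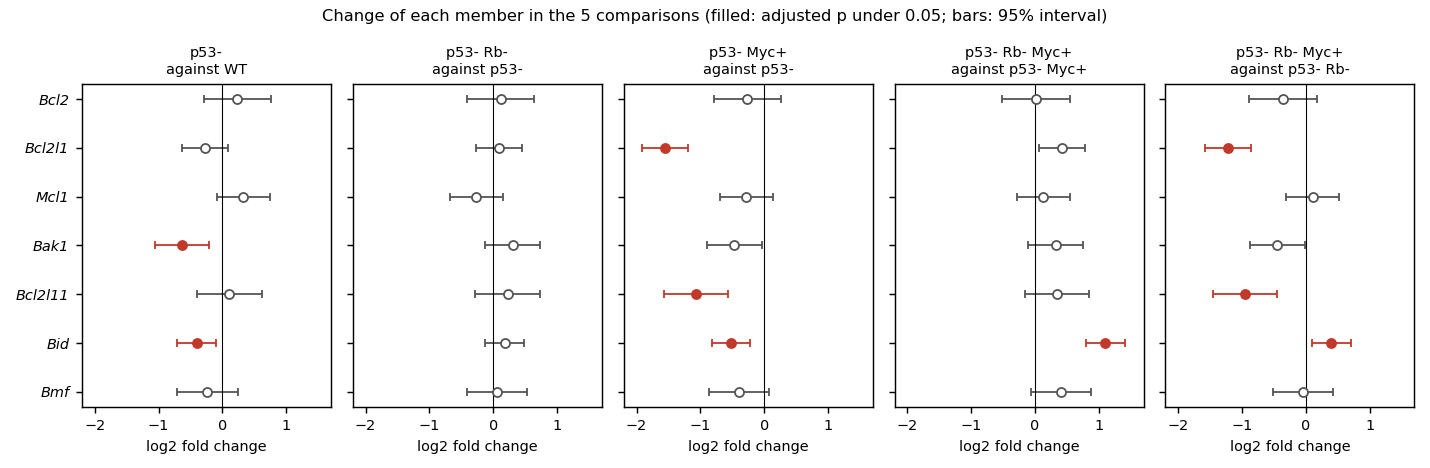
Log2 fold change of each measured member in the 5 comparisons, with 95% intervals from the limma fit. Filled red points passed at an adjusted p under 0.05. Bcl2l1 and Bcl2l11 fell in both Myc+ comparisons, Bid rose in both comparisons that lead to p53- Rb- Myc+, and no member passed with the Rb- label alone.

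Without the Rb- label, p53- Myc+ cultures had lower Bcl2l1, Bcl2l11 and Bid. These 3 of 7 members fell and none rose, beside 33.3% of all genes that passed (13.1% rose and 20.2% fell). Bcl2l1 fell by 1.55 ± 0.17 on the log2 scale (2.92-fold lower, adjusted p = 1.93e-07). Bcl2l11 fell by 1.07 ± 0.24 (2.10-fold lower, adjusted p = 0.00128), and Bid fell by 0.52 ± 0.15 (1.43-fold lower, adjusted p = 0.00744). All 3 p53- Myc+ arrays lay below all 3 p53- arrays for each of them, as the arrays of 42.6% of all genes stood apart. The median change of all genes in this comparison moved from -0.09 to 0.11 when each array was centred on its median. After this centring, Bcl2l1 (-1.35, adjusted p = 1.73e-06) and Bcl2l11 (-0.87, 0.0079) still passed, whereas Bid did not (-0.32, 0.101). With centring, 59.2% of all passing genes were risers, against 39.2% without it.

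The other 4 members did not pass in that comparison. Bak1 changed by -0.47 ± 0.21 (adjusted p = 0.0910) and passed without p53- replicate 3 (-0.67, 0.0238) and with an intensity trend in the prior (0.0420). Bmf changed by -0.39 ± 0.23 (adjusted p = 0.210) and passed without p53- Myc+ replicate 2 (-0.71, 0.0109). The intervals were -0.79 to 0.27 for Bcl2 and -0.70 to 0.13 for Mcl1, so a fall of either as deep as that of Bcl2l1 lay outside them. Beside these changes, epithelial markers fell in 8 of 8, endothelial markers in 4 of 6 and leukocyte markers in 4 of 8 (sum from between 575 and 723 to between 248 and 256). Fibroblast markers rose in 5 of 10 and fell in 3, their sum moving from between 8374 and 8815 to between 5481 and 6326. Most of the sum in p53- arrays was Fn1, which went from 5266 ± 95.8 to 1052 ± 44.5 (SD, n = 3). The lower sum therefore does not describe the 5 markers that rose. The part of these markers in the result was not tested.

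Among cells labelled Rb-, the direction with the Myc+ label was again down for Bcl2l1 and Bcl2l11 but up for Bid. Bcl2l1 fell by 1.22 ± 0.17 (2.33-fold lower, adjusted p = 6.10e-06) and Bcl2l11 fell by 0.95 ± 0.24 (1.94-fold lower, adjusted p = 0.00341), while Bid rose by 0.40 ± 0.15 (1.32-fold, adjusted p = 0.0365). The 3 passing members compare with 36.3% of all genes that passed (17.6% rose and 18.7% fell), and for each of them the arrays of the 2 groups stood apart, as for 51.2% of all genes. Bid missed the threshold without p53- Rb- replicate 1 (0.32, adjusted p = 0.168) or 2 (0.0622) or without p53- Rb- Myc+ replicate 1 (0.102) or 2 (0.118). Bak1 changed by -0.45 ± 0.21 (adjusted p = 0.0973). It passed without p53- Rb- Myc+ replicate 3 (-0.59, 0.0497), with an intensity trend (0.0486) and with array weights (0.00901), and with weights Bcl2 also passed (-0.49, 0.0183). Epithelial markers fell in 8 of 8 and fibroblast markers in 8 of 10, the latter sum going from between 10562 and 12411 to between 3664 and 4661, and their part was not tested.

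Bid was the member that rose with the Rb- label among Myc+ cultures. It rose by 1.10 ± 0.15 (2.14-fold, adjusted p = 2.04e-05), from a mean of 90.1 ± 2.12 (SD, n = 3) to 212 ± 17.6, and the arrays stood apart. This 1 of 7 passing members compares with 4.69% of all genes that passed (3.29% rose and 1.40% fell). The increase passed under each of 25 alternatives (adjusted p from 3.47e-06 to 0.000889). Without the Myc+ label the change of Bid with the Rb- label was 0.18 ± 0.15 (adjusted p = 0.415). The difference between both Rb changes was itself tested and was 0.92 ± 0.21 (adjusted p = 0.00460), where 13.6% of all genes passed (8.78% higher and 4.86% lower), and it passed under each of 24 alternatives (0.00017 to 0.0206).

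The other 6 members did not pass in either test. Bcl2l1 (0.41 ± 0.17, adjusted p = 0.236) and Bak1 (0.32 ± 0.21, 0.524) had all 3 p53- Rb- Myc+ arrays above all 3 p53- Myc+ arrays, so with Bid 3 of 7 members stood apart, beside 20.5% of all genes. Their difference between both Rb changes had 95% intervals from -0.18 to 0.84 for Bcl2l1 and from -0.59 to 0.63 for Bak1. Fibroblast markers fell in 4 of 10 with the Rb- label among Myc+ cultures (sum from between 5481 and 6326 to between 3664 and 4661) and epithelial markers rose in 2 of 8, and their part in the result was not tested.

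**Figure D3:**
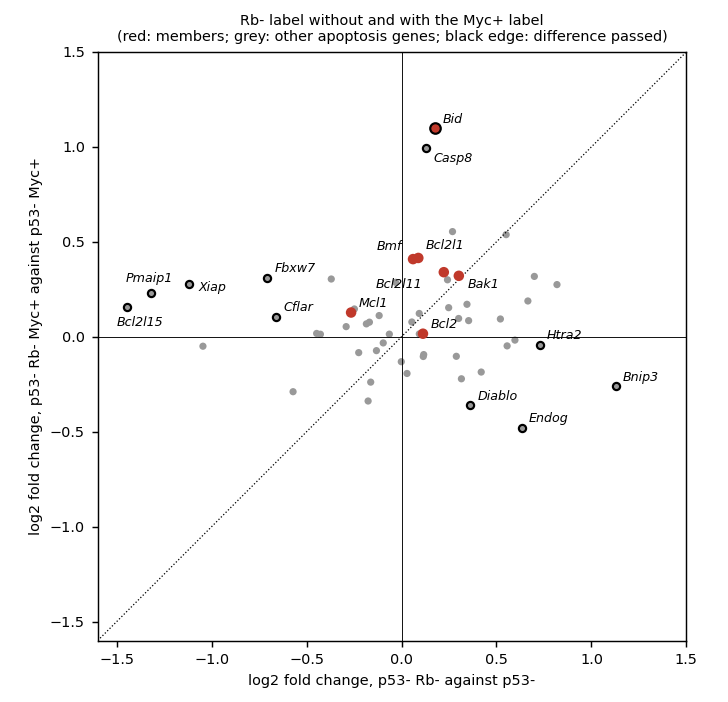
Log2 fold change with the Rb- label without (horizontal axis) and with (vertical axis) the Myc+ label, for the 7 members (red) and 50 other apoptosis genes (grey); a black edge marks a difference that passed, and the dotted line marks equal change. Of the members only Bid (0.18 and 1.10) passed, beside 13.6% of all genes. Of the 50 other genes 10 passed, 6 above the line (among them Bcl2l15, Pmaip1, Xiap, Fbxw7 and Casp8) and 4 below it (among them Bnip3).

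The other genes of the pathway were read from a list of 56, of which 50 were measured. In the order of the 5 comparisons, 17, 16, 20, 1 and 20 of them passed. With the p53- label 9 rose and 8 fell. With the Rb- label 10 rose and 6 fell. The Myc+ label gave 9 rising and 11 falling without the Rb- label, and 8 rising and 12 falling with it. The difference between both Rb changes passed in 10 of the 50, beside 13.6% of all genes. It was higher with the Myc+ label in 6 of the 10 and lower in 4 (8.78% and 4.86% of all genes). Among the 6 higher ones it was larger than that of Bid in Bcl2l15 (1.60 ± 0.26, limma, adjusted p = 0.000226), Pmaip1 (1.55 ± 0.31, 0.00175), Xiap (1.40 ± 0.28, 0.00167) and Fbxw7 (1.02 ± 0.23, 0.00513). Bcl2l15 (8.36 and 11.2) and Pmaip1 (2.81 and 6.05) lay near the bottom of the scale in p53- Myc+ and p53- Rb- Myc+ arrays. A fall with the Rb- label could hardly show there. The 4 lower ones were Bnip3, Endog, Htra2 and Diablo. With each array centred they stood at -1.53, -1.25, -0.90 and -0.86, and Bid at 0.79. Centring ended the call of Cflar, 1 of the 6 higher ones (0.63, limma, adjusted p = 0.0862). For the 5 comparisons in the same order, the shares of all genes that passed were 29.0%, 19.8%, 33.3%, 4.69% and 36.3%.

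Among caspases and their direct regulators, Casp8, the initiator caspase that cuts BID, had means of 54.6 ± 4.47 with the p53- Myc+ label and 125 ± 6.15 with p53- Rb- Myc+ (SD, n = 3). The other groups lay at 324 ± 31.2 (WT), 381 ± 51.1 (p53-) and 416 ± 42.0 (p53- Rb-). It fell by 2.48 ± 0.15 with the Myc+ label (adjusted p = 1.04e-11) and by 1.62 ± 0.15 among cells labelled Rb- (1.54e-08). Among Myc+ cultures it rose with the Rb- label by 0.99 ± 0.15 (adjusted p = 0.000151), the only 1 of the 50 genes to pass there, and the difference between both Rb changes was 0.87 ± 0.22 (0.0101). Casp8 and Bid thus shared this direction, and both fell with the Myc+ label in cells not labelled Rb-. Among cells labelled Rb-, Casp8 fell with the Myc+ label whereas Bid rose (0.40 ± 0.15). Cflar, whose product FLIP blocks caspase-8, fell by 1.73 ± 0.17 (adjusted p = 3.43e-08) with the Myc+ label. Casp6 fell by 0.79 ± 0.22 (adjusted p = 0.00635) and by 1.02 ± 0.22 (0.000737) in the Myc+ comparisons without and with the Rb- label. Its means were 97.9 ± 27.3 in p53- and 48.4 ± 1.54 in p53- Myc+ arrays. Casp2 rose by 0.69 ± 0.19 (adjusted p = 0.00533) with the Myc+ label in cells not labelled Rb-, but did not pass among cells labelled Rb- (0.16 ± 0.19, 0.543). Casp9, the initiator caspase of the apoptosome, did not pass in any comparison.

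Among other relatives of the members, Pmaip1, which encodes the MCL1 antagonist NOXA and is a known p53 target, was 57.1 ± 12.2 in WT and 186 ± 32.1 in p53- arrays, a rise of 1.47 ± 0.22 (adjusted p = 4.53e-05). It fell by 1.32 ± 0.22 (adjusted p = 0.000205) with the Rb- label, to 68.3 ± 28.7, and to 2.81 ± 2.01 in p53- Myc+ arrays (-3.42 ± 0.22, adjusted p = 1.57e-11). Bik, another BH3-only gene, fell with the p53- label (-0.90 ± 0.19, adjusted p = 0.00133) and in both Myc+ comparisons (-0.78 ± 0.19 and -1.40 ± 0.19). Bad, also BH3-only, fell with the p53- label (-0.87 ± 0.17, adjusted p = 0.000744) and rose with the Rb- label (0.70 ± 0.17, 0.00624). Bok, another pro-apoptotic effector outside the members, passed with the Rb- label (0.56), going from 88.8 ± 7.74 to 138 ± 16.9 (SD, n = 3). Among cells labelled Rb- it fell with the Myc+ label (-0.43), a call that centring ended. Bbc3, the gene of the p53-induced BH3-only protein PUMA, did not pass in any comparison; its means ran from 82.3 to 112. The BCL2-like gene Bcl2l15 fell from 446 ± 24.7 in p53- to 8.36 ± 1.06 in p53- Myc+ arrays, a change of -4.25 ± 0.18 (adjusted p = 1.67e-14). Because Pmaip1 and Bcl2l15 were near the bottom of the scale in Myc+ arrays, the size of their changes depends on the constant added. The same holds for their differences between both Rb changes.

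Inhibitor of apoptosis genes rose in 4 of 6 with the p53- label, beside 19.3% of all genes that rose, including Xiap, the direct caspase inhibitor, by 0.82 ± 0.19 (adjusted p = 0.00336) and Birc5, which also serves in mitosis, by 0.63 ± 0.16 (0.00430). Xiap fell again with the Rb- label (-1.12 ± 0.19, adjusted p = 0.000361). Of 9 genes of the apoptosome and of mitochondrial release, channel genes included, 4 rose in p53- Myc+ against p53- arrays (13.1% of all genes rose) and 1 in p53- Rb- Myc+ against p53- Rb- arrays (17.6%). Htra2, a protease that counters XIAP, rose by 1.46 ± 0.16 (adjusted p = 1.21e-07), Endog, a nuclease, by 1.16 ± 0.17 (7.33e-06) and Diablo, another XIAP antagonist, by 0.51 ± 0.16 (0.0145) in the first of these, and the channel gene Vdac1 was the fourth. Among cells labelled Rb-, Htra2 rose by 0.69 ± 0.16 (adjusted p = 0.00142), while Endog (0.05 ± 0.17, 0.838) and Diablo (-0.21 ± 0.16, 0.302) did not pass. In p53- Myc+ against p53- arrays, centring each array ended 3 of the 20 pathway calls (Dffb, Fbxw7 and Ywhaz). In p53- Rb- Myc+ against p53- Rb- arrays it also ended 3 of 20 (Bok, Birc3 and Tradd). No direction turned among the calls of either comparison.

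**Figure D4:**
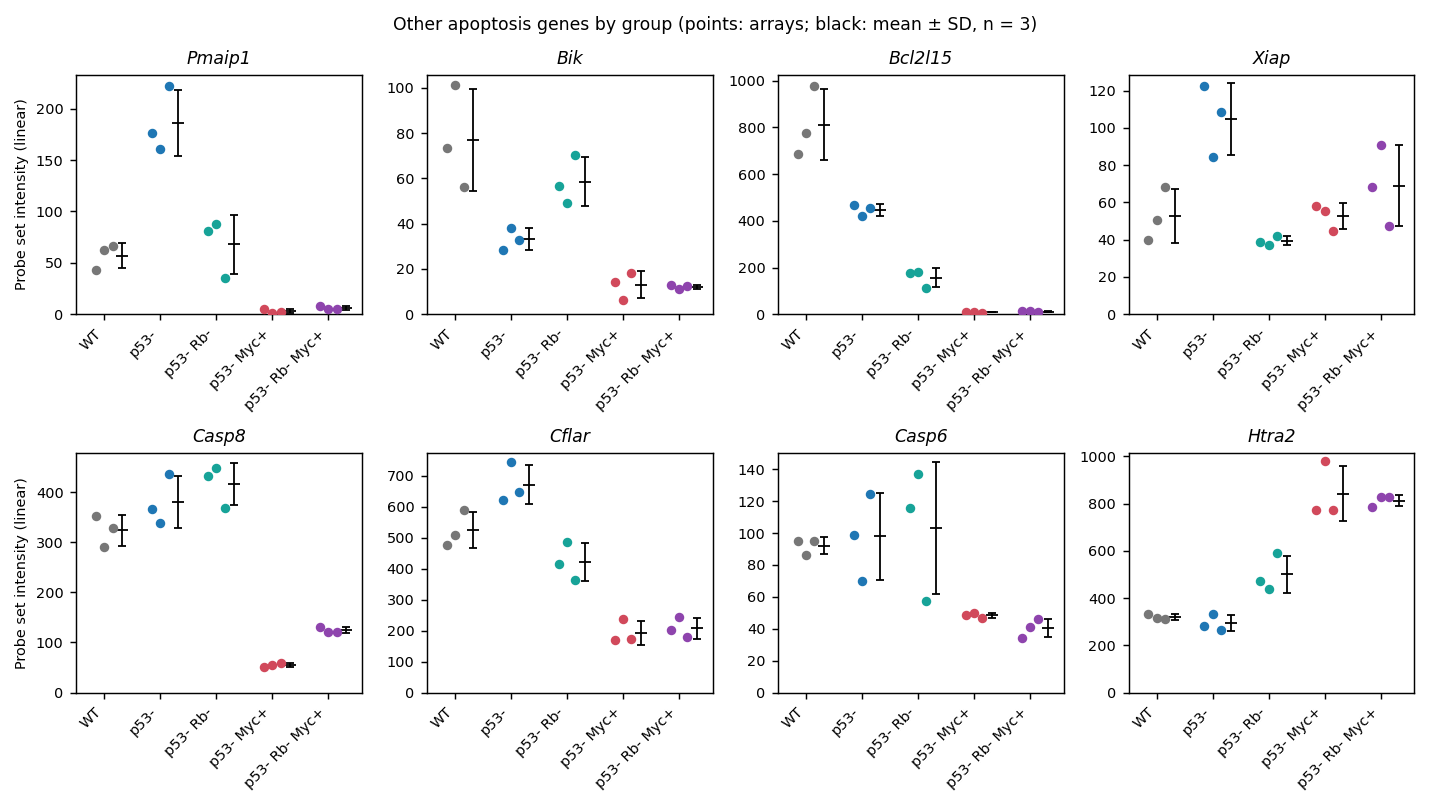
Probe set intensity (linear axis from 0) of 8 other apoptosis genes in each array, by group, with the mean ± SD of 3 arrays in black. Casp8, Cflar and Casp6 lie lower in the groups labelled Myc+, Pmaip1 is highest in p53- arrays (161 to 222) and Htra2 is highest in both groups labelled Myc+.

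The genes most like each of the 4 varying members were found as those with the smallest root mean square difference of log2 values, each gene centred on its own mean, over the 15 arrays. For Bcl2l1 they were Ezr (0.136), Efhd2 (0.145) and Chmp2b (0.149), and for Bak1 they were Fbrs (0.118), Gga1 (0.127) and Zfp36 (0.127). Bcl2l11 lay nearest to Ppp1r15a (0.187), Svil (0.209) and Irf1 (0.209). Bid lay nearest to Amigo2 (0.133), Rnh1 (0.189) and Kcnip1 (0.206). These distances include the spread between arrays of 1 group and describe likeness of pattern only.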

How the data were processed

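Per the submitters' processing notes, the authors made the probe set values with Affymetrix Expression Console 1.1. Per the labels' protocols, a WT-Ovation Pico kit served for amplification. The deposited values are probe set intensities on a linear scale (4.11e-05 to 8348.1); for summarisation, background correction, normalization and build, the method is not given in the sources used here. Of 35556 probe sets, 21789 named 1 gene. Per gene the probe set with the highest mean over 15 arrays was kept (19938 genes). Log2 of intensity plus 16 entered limma 3.58.1 (R 4.3.3) as group means of all 15 arrays, with 2-sided tests; the fit had 10 residual degrees of freedom. The script was tested on simulated data. The number of arrays limits the precision, and no 2 arrays held identical values. Members, lists, motifs and tests were chosen with earlier results of these data known. The genes to be named were the members, Rb1, Myc, Casp6 and up to 4 passing genes per pathway list with the smallest p. The 3 nearest genes of members spanning at least 1 on the log2 scale were added. Not every gene within this limit was named. Those left out include Parp1, Usp9x, Fas, Tnfrsf10b and Tnfrsf1a. Genes whose calls ended with centring in a Myc+ comparison were named too. Bbc3 and Casp9, which did not pass, and Krt19, Cd14, Ptprc and Fn1 were named after their values were seen. Promoter stretches were RefSeq sequences. Deviations from the group means correlated between same-number arrays of p53- Rb- Myc+ and p53- Myc+ (r = 0.102, 0.192 and 0.379), so their numbers may pair them. This comes from the values, not the labels. The main fit held no pairing term in any comparison. The replicate block, an alternative, was set on all 5 groups at once. Alternatives were other constants, scalings, filters, probe set rules, a replicate block, array weights, an intensity trend, the 2 groups alone and leaving out each array.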

Additional observations from a re-analysis of the deposited data

Results flagged for a closer look

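The change of Bid with the Rb- label differed between cultures with and without the Myc+ label. The difference, tested within the limma fit, was 0.92 ± 0.21 on the log2 scale (adjusted p = 0.00460). Bid was higher in 3 of 3 p53- Rb- Myc+ arrays than in all p53- Myc+ arrays, whereas the p53- Rb- and p53- arrays overlapped. Arrays stood apart for 20.5% of all genes in the first of these pairs and for 40.0% in the second. No other member passed the difference test, so 1 of 7 did, beside 13.6% of all genes.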

How the results depend on the processing

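Of 14 member results that passed, including the test over all groups, 10 passed under every alternative run (at most 25), and none of the 14 changed sign. With the p53- label the count of passing members, 2 in the main setting, was 1 with 1 added, 1 with the replicate block (Bid, adjusted p = 0.0502) and 1 with only the 2 groups compared, and 0 to 2 without single arrays. With array weights it was 3 in place of 2 for the p53- label, 1 in place of 0 for the Rb- label, 5 in place of 4 in the test over all groups and 5 in place of 3 for p53- Rb- Myc+ against p53- Rb-. For the Rb- label, leaving out single arrays without weights gave 0 to 1. Counts of all genes were 8518 (Rb- label) and 5404 (difference of the Rb changes) with array weights, in place of 3950 and 2719. Without single arrays they ran from 3470 to 6094 for the p53- label, the lowest without p53- replicate 3, from 2098 to 4725 for the Rb- label (2483 and 2130 without p53- replicates 1 and 3, 2098 without p53- Rb- replicate 3) and from 1762 to 3234 for the difference (1762 without p53- replicate 3, 1795 without p53- Rb- Myc+ replicate 2). Signs of results that had not passed turned as follows. Bcl2 in p53- Rb- Myc+ against p53- Myc+ became -0.064 with centring and -0.026 with quantile normalization. In p53- Rb- Myc+ against p53- Rb-, Bmf became 0.021 with centring and 0.049 with weights, and Mcl1 -0.0710 with weights. In the difference of the Rb changes, Bcl2l11 became -0.018 with centring, and Bak1 -0.12 with centring and -0.12 with weights. Without single arrays, ranges that crossed 0 were -0.094 to 0.41 (Bcl2l11, p53- label), -0.073 to 0.33, -0.049 to 0.28 and -0.058 to 0.14 (Bcl2, Bcl2l1 and Bmf, Rb- label), -0.21 to 0.29 (Bcl2, Rb- with Myc+), -0.15 to 0.076 and -0.11 to 0.24 (Bmf and Mcl1, Myc+ among Rb-), and -0.32 to 0.18, -0.11 to 0.26 and -0.24 to 0.22 (Bcl2, Bcl2l11 and Bak1, difference). The causes were not tested. The replicate block changed no other call of a member, and in the 4 comparisons whose numbers did not pair, 2 or 3 of 6 arrays correlated best with their own number. Bmf gave no value among genes at or above the median level. Array centring leaves the nearest genes as they are by construction. The share of risers among passing genes went from 66.5% to 52.5% (p53- label), 70.2% to 55.8% (Rb- with Myc+) and 64.4% to 45.1% (difference) with centring.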
